A study of Mus musculus with 6 samples.

Results

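The 18S rRNA of the mouse brain was examined at the positions for which no ribose methylation is listed. All rows of 18S in both deposited position tables were taken, and the 40 sites listed as 2'-O-methylated were left out, which kept 1831 of 1871 positions (6758 positions in the whole series, with 28S and 5.8S). RiboMeth-seq had been run on whole brains of 2 groups. The adult group (n = 3) carried a CRISPR/Cas9 deletion of the Snord115 genes inherited from the father, on the C57BL/6J background, and is named adult here. The other group (n = 3) came from embryos at E16.5 in which both Snord115 and Snord116 were missing, from a line that the methods do not describe, and is named E16.5. One figure legend calls the doubly deficient brains adult, and the methods name only adult brains for RiboMeth-seq. The sample labels and the results text give E16.5, which was followed. Snord115 was missing from both groups, so age, the Snord116 loss and the mouse line changed together and cannot be told apart. The tables hold rRNA positions only, so neither tissue markers nor the deleted snoRNAs could be read in them.

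RiboMeth-seq reads where an alkali-treated RNA breaks. A methyl group on the ribose protects the bond that follows it, so few fragments start or end there, and the score rises from 0 (as many ends as the neighbours) to 1 (no ends). Bases can be modified as well. In 18S, box H/ACA snoRNAs guide the change of uridine to pseudouridine. A few further marks are the hypermodified U1250 of the P site and the acetylated cytidines C1339 and C1844 (made by NAT10). Others are the N7-methylated G1641 (BUD23), the N6-methylated A1834 (METTL5) and the dimethylated A1852 and A1853 (DIMT1). These marks leave the ribose without a methyl group, so the score at these positions is called a score and not a methylation level. Each of the 7 carried the stated base in the tables (mouse numbering), as did G628, A1826 and A1827, the universally conserved bases of the decoding centre.

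The positions on which the results turn are shown here with 10 bases on each side (5' to 3', the position in capitals), first the base-modified ones, then 3 uridines and 1 guanosine with the highest scores, then the position that differed most between the groups.
U1250: uuaauuugacUcaacacggga
C1339: ggugcauggcCguucuuaguu
G1641: caugaacgagGaauucccagu
A1834: aaaagucguaAcaagguuucc
C1844: acaagguuucCguaggugaac
A1852: uccguaggugAaccugcggaa
A1853: ccguaggugaAccugcggaag
U1047: aagucggaggUucgaagacga
U824: aauuagagugUucaaagcagg
U1240: agccugcggcUuaauuugacu
G203: cccccuucccGgggggggaug
U1856: uaggugaaccUgcggaaggau
The letters were read from the tables. In GRCm38.p6, words of 31 of these letters that match exactly lay on the plus strand of chromosome 17 from 39846353 to 39848201 and held 93.7% of the 18S positions. That stretch coincides within 1 base with an annotated 18S rRNA pseudogene, Rn18s-rs5.

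Of the 1831 positions, 1819 had 6 neighbours on each side, and all of these passed the minimum of 100 expected ends in every brain. Median expected ends at these positions were 2030, 2690 and 1800 in the adult brains and 1530, 1620 and 3210 in the E16.5 brains, and the lowest was 187. Both kinds of ends were placed on the same index. At the 40 listed sites the 5' ends fell to a median of 0.0442 of their surroundings and the 3' ends to 0.0687, while 1 position to either side the medians lay between 0.882 and 1.03. Between brains, the end ratio over the 1819 positions correlated with Pearson's r from 0.452 to 0.792, a description over positions that share their sequence and their neighbours. The highest r joined adult brain 1 and E16.5 brain 1, above every pair within a group (0.555 to 0.771). With 3' ends alone, those brains reached 0.832.

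Most unlisted positions had a low score. The median over the 1819 positions was 0.0420, 0.0426 and 0.0439 in the adult brains and 0.0407, 0.0850 and 0.0670 in the E16.5 brains, whereas the 40 listed sites had medians from 0.929 to 0.980. No unlisted position reached 0.75 in all 6 brains. The count at 0.75 or more in a single brain was 9, 12 and 7 in the adult and 10, 24 and 14 in the E16.5 brains. A mean score of 0.5 or more over the 6 brains was found at 75 positions (4.12%) in 18S, beside 228 of 4477 unlisted positions (5.09%) in 28S and 39 of the 40 listed 18S sites. The lowest listed site, C1274, had a mean score of 0.475, below the 75 unlisted positions. Per group, the mean of 3 brains was 0.5 or more at 75 positions in the adult and at 108 in the E16.5 brains, and 42 positions were in both counts. Per brain, 135, 122 and 106 positions reached 0.5 in the adult group and 130, 183 and 154 in the E16.5 group. The groups overlapped (121 ± 14.5 against 156 ± 26.5, mean ± SD, n = 3 each, exact permutation p = 0.2).

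The score depended on the base. G, the most frequent of the scored bases (539 positions), had median scores of 0.153, 0.162 and 0.138 in the adult and 0.125, 0.171 and 0.157 in the E16.5 brains. A (403 positions) had medians between 0 and 0.108, and C (487) and U (390) between 0 and 0.0401. G stood above the other bases in every brain, with like median scores in both groups (0.151 ± 0.0123 and 0.151 ± 0.0238, SD, n = 3). The end ratio, the log2 of the ends at a position over those expected from its neighbours, was lowest at G in every brain. At G its median was -0.24, -0.25 and -0.21 in the adult and -0.19, -0.27 and -0.25 in the E16.5 brains. The G median minus that of the other bases together was -0.24, -0.29 and -0.24 in the adult and -0.21, -0.19 and -0.21 in the E16.5 brains. In this difference every adult brain was below every E16.5 brain (exact permutation p = 0.1, the smallest possible). Both kinds of ends were low at G, 5' ends with medians from -0.31 to -0.16 and 3' ends from -0.51 to -0.30. At A the 5' ends were low in all 6 brains (-0.21 to -0.13), while the 3' ends were spread on both sides of 0 (-0.14 to 0.11). U had the highest share of positions with a mean score of 0.5 or more, 8.72% (34), against 5.19% of G (28), 1.99% of A (8) and 1.03% of C (5). High scores at U thus came with a median near 0, so that a minority of the uridines carried them.

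**Figure D1:**
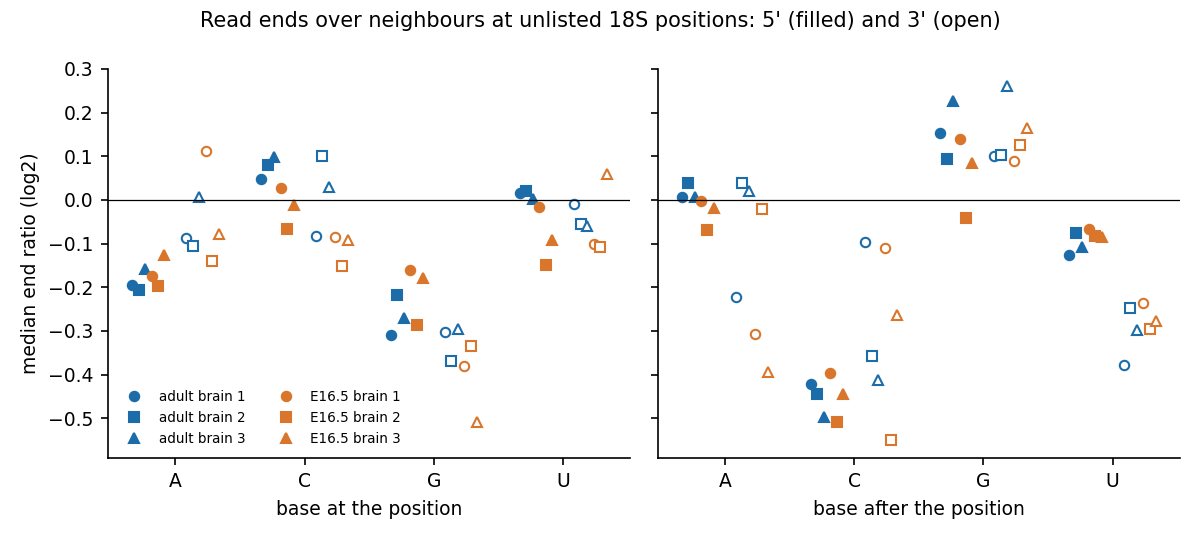
Median end ratio (log2 of read ends over those expected from the neighbours, y axis) at unlisted 18S positions, by the base at the position (left) and by the base after it (right), 1 point per brain, with 5' ends filled and 3' ends open. Positions before C lie lowest for 5' ends in every brain, and both kinds of ends at G lie below 0 in every brain.

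The ends also varied with the base after the position. Before C, the median end ratio of 5' ends was -0.42, -0.44 and -0.50 in the adult and -0.40, -0.51 and -0.44 in the E16.5 brains. Before G it lay between -0.04 and 0.23. The 3' ends before C were less even, with -0.10 in adult brain 1 and -0.11 in E16.5 brain 1 against values from -0.55 to -0.26 in the other 4 brains. G followed by C had the lowest median on average over the brains of each group, at -0.34, -0.67, -0.70, -0.40, -0.56 and -0.40 for both ends together, although G followed by U was lower in adult brain 1 (-0.40). It held 14 of the 28 G with a mean score of 0.5 or more and 139 of all 539 G.

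Adult and E16.5 brains were then compared over bases and steps. At C followed by A, the median end ratio was 0.30, 0.39 and 0.38 in the adult brains and 0.08, 0.10 and 0.09 in the E16.5 brains. At U followed by A it was 0.32, 0.41 and 0.30 against 0.06, 0.19 and 0.09. At both steps, which are known as weak points of an RNA chain, every adult brain was above every E16.5 brain. At G followed by U the order was the opposite, with -0.40, -0.43 and -0.42 in the adult and -0.21, -0.33 and -0.23 in the E16.5 brains. Of 60 such medians compared (4 bases and 16 steps, for both ends, 5' ends and 3' ends), 15 reached p = 0.1, the smallest that an exact permutation of 3 against 3 brains allows, and none passed after adjustment over the 60 (adjusted p = 0.4 for these 15).

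edgeR compared the ends at each position with its neighbours in both groups together. Fewer ends than expected were called at 478 of the 1819 unlisted 18S positions (26.3%), beside 28% of all 6546 positions tested, and more ends at 374 (20.6%), beside 19.8%. The unlisted 18S positions thus lay close to the background in both directions. By base, fewer ends were called at 38.2% of G, 23.6% of A, 23.3% of U and 17.7% of C, and more ends at 27.1% of C, 24.6% of U, 18.4% of A and 13.4% of G. All 40 listed 18S sites were called with fewer ends.

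The highest mean scores were at 8 uridines and 2 adjacent guanosines. U1047 led with 0.849, 0.752 and 0.765 in the adult and 0.891, 0.690 and 0.715 in the E16.5 brains. U824 had 0.741, 0.736 and 0.655 against 0.841, 0.768 and 0.838. G203, the first G of a G run that follows a run of pyrimidines, had 0.670, 0.825 and 0.742 against 0.696, 0.828 and 0.805. U1250 came next with 0.753, 0.643 and 0.753 against 0.650, 0.874 and 0.792. Then came U1627 (mean 0.737), U1240 (0.733), U1048 (0.723), U1369 (0.705), U683 (0.699) and G204 (0.696). None of the 10 was called between the groups (edgeR, adjusted p from 0.277 to 0.880). All 10 had fewer ends than their neighbours (edgeR adjusted p from 2.49e-06 to 1.26e-04), a description here, since the score that chose them uses the same ends.

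Of these 10 positions, 7 are uridines that human 18S rRNA carries as pseudouridine. A list of 44 human pseudouridine positions was therefore placed on the mouse sequence by the offset between human and mouse numbering at the listed sites. Outside a stretch where that offset changes, all 41 fell on U. The other 3 (U212, U220 and U298) lie in that stretch and were placed with the offset that follows it. The list was written after the ranking had been seen, so its counts are a description with no test. Of the 44 uridines, 26 (59.1%) had a mean score of 0.5 or more, against 7 of the 345 other uridines (2.03%). The list held 14 of the 20 highest unlisted positions of 18S. Fewer ends than the neighbours were called at 40 of the 44 (90.9%), against 50 of the 345 other uridines (14.5%), with 28% over all positions tested. The median score of the 44 was 0.549, 0.441 and 0.491 in the adult and 0.549, 0.596 and 0.569 in the E16.5 brains, and that of the other uridines was 0 in all 6.

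**Figure D2:**
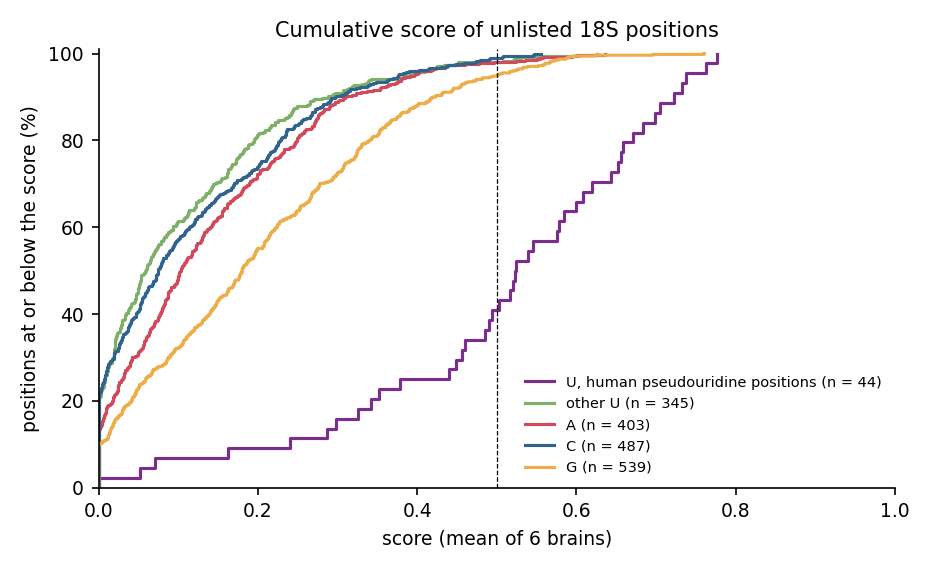
Cumulative share of unlisted 18S positions (y axis, percent) at or below a given score (x axis, mean of 6 brains) for U at the 44 human pseudouridine positions, the other U, A, C and G. The 44 uridines lie to the right of every other set, with 59.1% of them at 0.5 (dashed line) or above, and G lies to the right of A, C and the other U.

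The listed sites and these uridines lost ends to different extents. At the 44 uridines the median end ratio was -1.15, -0.84 and -0.97 in the adult and -1.15, -1.31 and -1.22 in the E16.5 brains. At the 40 ribose-methylated sites it was -5.02, -5.59 and -4.94 against -3.81, -3.99 and -4.09, so that these uridines kept many more ends. The loss at the uridines was deeper at 3' ends (-1.71, -1.05, -1.01, -1.79, -1.51 and -1.46 over the 6 brains) than at 5' ends (-0.93, -0.70, -0.91, -0.88, -1.03 and -1.01) in every brain. U1047 showed this most clearly among the named positions, with 3' end ratios of -6.10, -4.43 and -6.35 in the adult and -4.50, -4.25 and -4.35 in the E16.5 brains, against 5' end ratios from -1.62 to -1.21. It held 32, 83 and 14 of the 3' ends in the adult brains and 181, 124 and 115 in the E16.5 brains, where 5' ends numbered 392 to 2784. The order held for the medians and not at each uridine. At U1349 the 5' end ratios were -1.74, -1.91, -1.10, -1.36, -1.35 and -1.17 over the 6 brains. Its 3' end ratios were -1.10, 0.09, 0.06, -1.34, -0.45 and -1.45. At U105, U865, U899, U1058, U1176 and U1447, among others, the 5' ends were likewise the lower ones in most brains. Among the highest positions, the 5' ends of U1627 were the lower ones in 2 of the 6 brains (-2.46 against -0.78 in adult brain 2 and -2.84 against -1.51 in E16.5 brain 3).

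Within the list the scores ran from 0.00336 to 0.777. U1362 had almost no score (0.00336) and more ends than its neighbours (log2 0.44, edgeR adjusted p = 0.0130). U212 had a mean score of 0.0710 and U298 of 0.0515, both from the stretch where the placement is unsure, and U1138 had 0.162. Without that stretch, 25 of 41 reached 0.5. With both ends together none of the 44 was called between adult and E16.5. The nearest was U865, with 0.294 (mean of 3 adult brains) against 0.746 and a log2 change of 1.48 (edgeR adjusted p = 0.0515). With 5' ends alone U865 (log2 2.10, edgeR adjusted p = 0.00755) and U212 (log2 -2.23, adjusted p = 0.00287) were called. The counts of the list depended on which ends were read. With 3' ends alone 27 of 44 reached 0.5 and with 5' ends alone 20 of 42, and among the 20 highest positions of all bases the list then held 8 and 1.

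**Figure D3:**
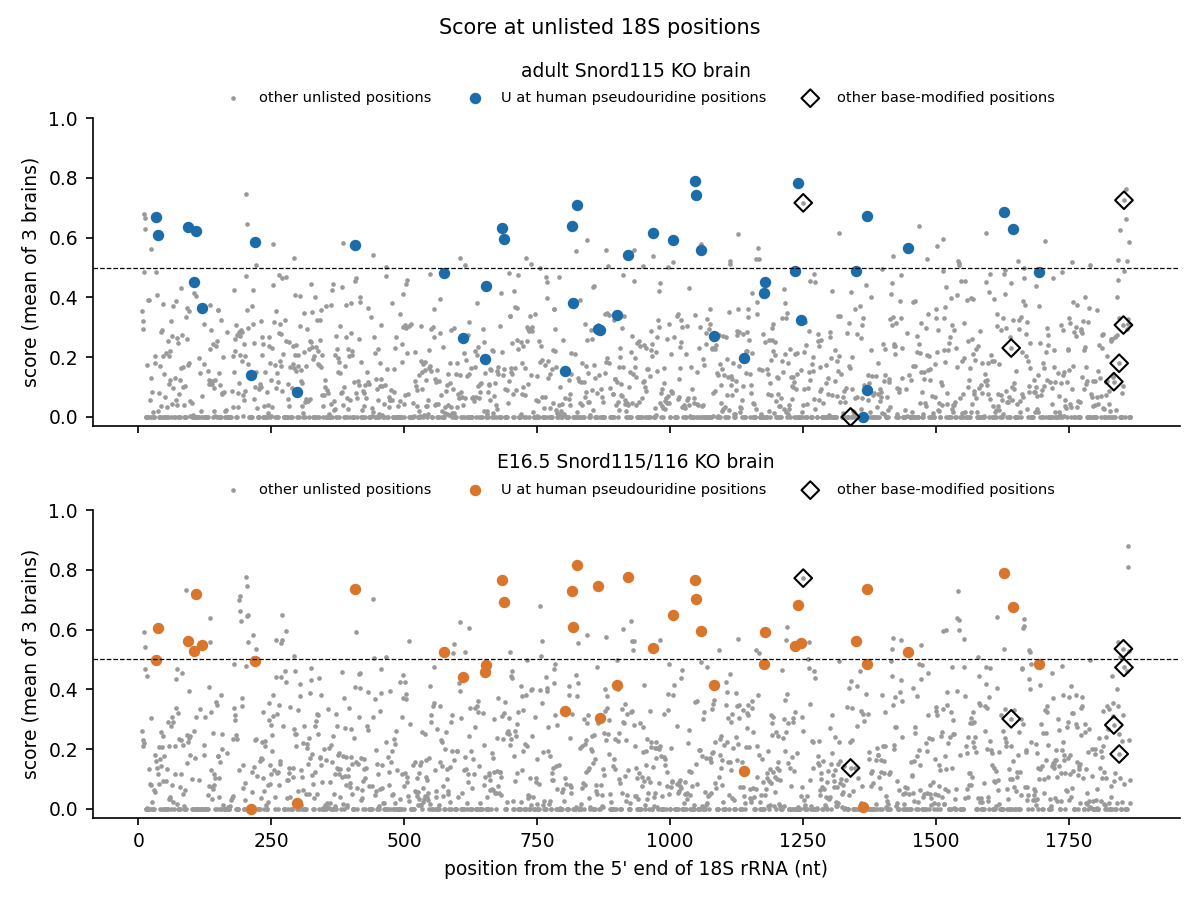
Mean score of 3 brains (y axis) at each unlisted 18S position against the distance from the 5' end of the RNA (x axis, nt), for adult (top) and E16.5 brains (bottom), with U at the human pseudouridine positions in colour and the other base-modified positions as diamonds. Positions over 0.5 (dashed line) are spread along the RNA, and U1250 is the highest diamond in the E16.5 brains.

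The remaining positions with a mean score of 0.5 or more were 47, of which 28 were G. Apart from G203 and G204, the highest of them were A11 (0.636), U1541 (0.626) and G442 (0.624). Over stretches of 200 positions, the share at 0.5 or more ran from 2.11% (401 to 600) to 5.58% (1401 to 1600), and it was 9.38% (6 of 64) in the last stretch (1801 to 1871). Near both ends of the RNA only 1 kind of end was available. In the last 20 positions the 6 brains held 1 to 8 of the 5' ends and 13324 to 68457 of the 3' ends, and in the first 20 positions 0 to 3 of the 3' ends and 10791 to 77622 of the 5' ends. The sequenced fragments had been selected at 20 to 40 nt.

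U1250, modified on its base in several steps that begin with a pseudouridine, had the highest score of the 7 base-modified positions when averaged over the 6 brains (0.744). Its mean score was 0.717 ± 0.0634 in the adult and 0.772 ± 0.113 in the E16.5 brains (SD, n = 3), and its ends did not pass the test between the groups (log2 0.32, SE 0.35, edgeR adjusted p = 0.702). It ranked 3 of 390 uridines by fewest ends. The loss lay mainly in the 3' ends, with end ratios of -3.85, -4.72 and -3.71 in the adult and -1.64, -3.57 and -2.65 in the E16.5 brains, against -0.95 to -0.35 for 5' ends in both groups.

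The ends around U1250 were then compared between the groups. The 3' ends within 10 positions, U1250 and those after it, made up 0.135%, 0.0750% and 0.158% of the 18S ends in the adult and 1.04%, 1.15% and 1.21% in the E16.5 brains. The 5' ends 30 to 21 positions before it made up 0.267%, 0.115% and 0.251% against 1.23%, 0.828% and 1.04%. In both windows every E16.5 brain was above every adult brain. A crossing ratio was taken, the log2 of 3' ends 1 to 20 positions after U1250 over those 41 to 60 after it, since fragments of 20 to 40 nt ending in the first window cross U1250 and those ending in the second do not. It was 0.61, -1.11 and -0.79 in the adult and 2.90, 2.04 and 1.30 in the E16.5 brains. The same ratio of 5' ends before U1250 was -0.95, -2.33 and -2.12 against 0.92, -0.90 and -0.26. Neither overlapped between the groups, with differences of -2.51 and -1.72 (exact permutation p = 0.1, the smallest possible, adjusted p = 0.35 over 14 ratios). Groups did not overlap at 25.7% of the 1811 18S positions with full windows for 3' ends and at 25.2% for 5' ends, and neighbouring positions share their windows. A larger difference was seen at 1.88% of them for 3' ends and at 7.73% for 5' ends. Over all brains U1250 was not an extreme position, with 74.9% of positions at a lower crossing ratio of 3' ends and 24.7% of 5' ends.

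**Figure D4:**
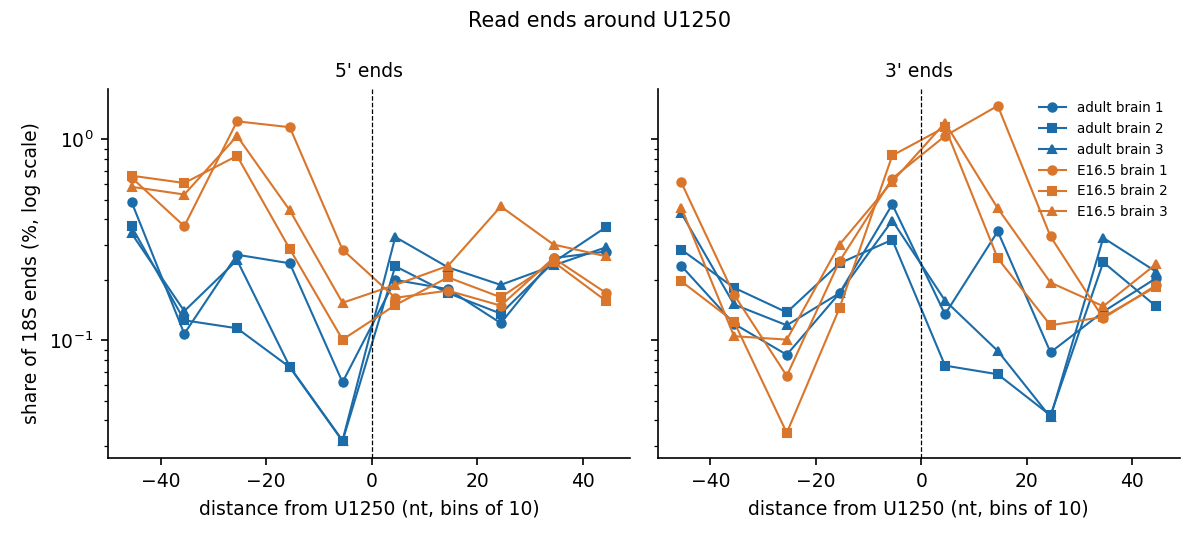
Read ends as a share of all 18S ends (y axis, percent, log scale) in bins of 10 nt by distance from U1250 (x axis, dashed line at 0), with 5' ends on the left and 3' ends on the right and 1 line per brain. E16.5 brains lie above all adult brains for 5' ends in each bin before U1250 and for 3' ends in the bins from 10 nt before to 9 nt after it.

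G1641, N7-methylated by BUD23, had scores of 0, 0.346 and 0.346 in the adult and 0.332, 0.274 and 0.299 in the E16.5 brains. Adult brain 1 was the only brain at 0. Fewer ends than expected were called (log2 -0.42, SE 0.13, edgeR adjusted p = 0.0212). By fewest ends it ranked 190 of 539 G, among which 38.2% were called with fewer ends. The 2 kinds of ends differed here. The 3' end ratio was -3.83, -3.88 and -2.77 in the adult and -2.29, -0.90 and -1.95 in the E16.5 brains, while the 5' end ratio lay between -0.03 and 0.69. The adult brains held 72, 85 and 100 of the 3' ends at G1641 and the E16.5 brains 324, 803 and 641, beside 877 to 3084 of the 5' ends. With both ends together the groups did not differ (log2 0.19, edgeR adjusted p = 0.775).

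At the acetylated cytidines and A1834 the ends did not pass the test against the neighbours. C1339 had a score of 0 in the 3 adult brains and in E16.5 brain 1, and 0.0320 and 0.379 in the other 2, and its ends did not depart from the neighbours by the test (log2 0.11, SE 0.14, edgeR adjusted p = 0.541). C1844 had 0, 0.363 and 0.176 against 0, 0.473 and 0.0778 (log2 -0.24, SE 0.16, adjusted p = 0.230). A1834, methylated by METTL5, had 0, 0.215 and 0.139 against 0.154, 0.466 and 0.222 and narrowly missed the threshold (log2 -0.32, SE 0.13, adjusted p = 0.0551). At each of these 3 positions the groups overlapped, and the differences between them were 0.34, 0.00 and 0.31 on the log2 scale (edgeR adjusted p = 0.616, 0.999 and 0.579).

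The dimethylated pair A1852 and A1853 lies within 20 positions of the 3' end, where 5' ends were absent (0 in all brains, but for 1 at A1853 in E16.5 brain 2). A1852 had scores of 0.572, 0 and 0.351 in the adult and 0.716, 0.408 and 0.484 in the E16.5 brains, and A1853 had 0.354, 0.866 and 0.956 against 0.343, 0.669 and 0.409. The brains of a group thus varied widely, and the groups overlapped at both. Fewer ends than expected were called at both (log2 -0.78, SE 0.20, edgeR adjusted p = 0.00810 for A1852, and log2 -1.40, SE 0.40, adjusted p = 0.0146 for A1853). They ranked 12 and 2 of 403 A by fewest ends. Their crossing ratios of 5' ends ran from -3.20 to -1.56 over both positions and all brains, with 3.92% and 3.09% of 18S positions lower. The share that belongs to the nearby end of the RNA was not tested. In the decoding centre, G628 and A1826 had mean scores of 0.0664 and 0.00931 and A1827 was at 0 in all 6 brains. More ends than expected were called at A1826 (log2 0.28, adjusted p = 0.0327) and at A1827 (log2 0.61, adjusted p = 0.00104).

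**Figure D5:**
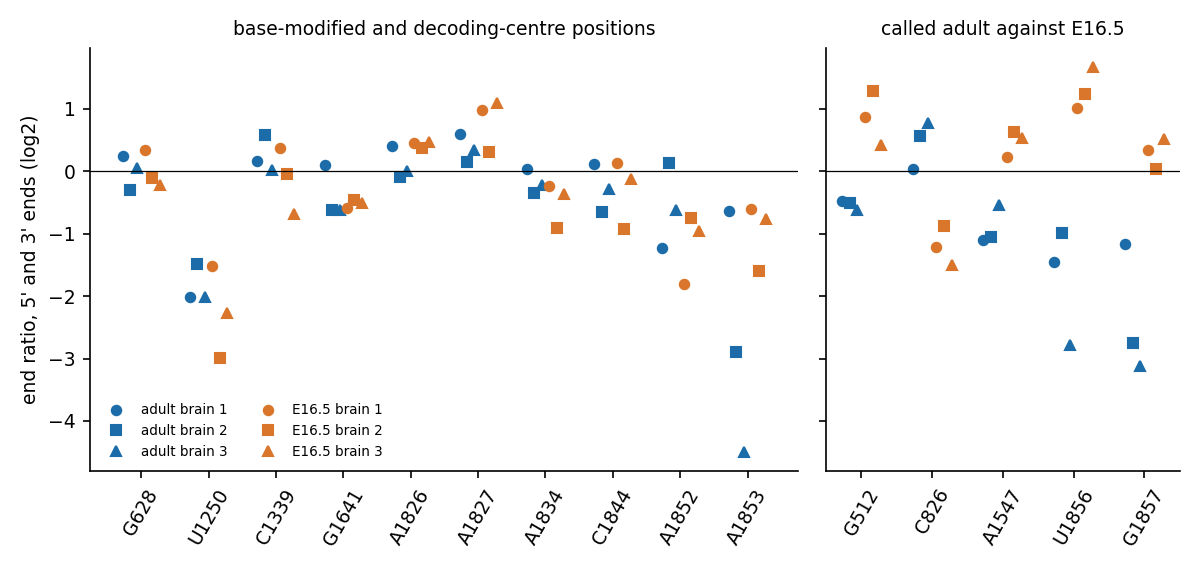
End ratio of 5' and 3' ends together (log2, y axis) in each brain at the 7 base-modified positions and 3 decoding-centre positions (left) and at the 5 unlisted 18S positions called between adult and E16.5 (right). On the left, U1250 and A1853 lie below 0 and A1827 above 0 in every brain, and the other positions lie on both sides of 0. The groups separate at the 5 positions on the right, which were chosen for that.

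The positions with the most ends over their neighbours were A820, C1672, G627, C404 and G1760. A820 had end ratios of 1.39, 1.02 and 1.03 in the adult and 1.96, 1.32 and 2.18 in the E16.5 brains, and G627, the neighbour of G628 and 2 positions before a listed site, had 0.92, 0.55 and 1.02 against 1.55, 1.65 and 1.58. At G627 the excess was of 5' ends (end ratio 0.67 to 1.81), at C404 of 3' ends (0.76 to 1.87). Each of the 5 is followed by G. Their scores were 0 throughout, since the score has no range for an excess of ends. None was called between the groups (edgeR adjusted p from 0.111 to 0.897).

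Adult and E16.5 brains differed at few unlisted 18S positions. edgeR called 5 of 1819 (0.275%), beside 0.550% of all 6546 positions tested and 6 of the 40 listed 18S sites. A further view counted positions at which the end ratios of the groups did not overlap, 367 of 1819 (20.2%), beside 20.4% of all positions. At an unadjusted edgeR p under 0.05 there were 260 (14.3%), beside 14.9% of all positions. U1856, near the 3' end, had scores of 0.635, 0.494 and 0.856 in the adult and 0 in the 3 E16.5 brains (log2 -2.90, SE 0.41, edgeR adjusted p = 0.0111). Its 3' ends numbered 183, 729 and 130 against 1761, 3747 and 11000, and no 5' end was seen there. G1857, the next base, had 0.554, 0.851 and 0.886 against 0 (log2 -2.42, SE 0.45, adjusted p = 0.0451). The 2 positions are neighbours and enter each other's expected ends. A1547 had 0.532, 0.519 and 0.312 against 0 (log2 -1.35, SE 0.23, adjusted p = 0.0302), and G512, next to a listed site, 0.285, 0.296 and 0.352 against 0 (log2 -1.44, SE 0.26, adjusted p = 0.0373). C826, 2 positions after U824, had the opposite order with 0 in the adult brains and 0.568, 0.455 and 0.645 in the E16.5 brains (log2 1.66, SE 0.27, adjusted p = 0.0245). At A1547 the difference was in the 5' ends, with end ratios of -1.49, -1.43 and -1.29 against 0.21, 0.67 and 0.64, while the 3' ends overlapped between the groups.

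The count of 5 changed with each brain left out, a step that keeps 2 brains in that group. Without adult brain 1 it rose to 21, while the count over all 6546 rRNA positions rose from 36 to 105. Without adult brains 2 or 3 or E16.5 brains 1, 2 or 3 it was 1, 2, 1, 2 and 2. The counts over all positions were then 11, 10, 19, 18 and 15. U1856 was called in each of these 6 fits (edgeR adjusted p from 0.0179 to 0.0448). A1547 and G1857 were called only without adult brain 1, G512 only without E16.5 brain 3, and C826 without adult brain 1 or E16.5 brain 2. With 5' ends alone 44 of 1745 positions were called, 3 of them among the 5, beside 180 of 5675 over all rRNA positions. With 3' ends alone 1 of 1750 was called, which was U1856, beside 4 of 5620 over all.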

How the data were processed

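Whole brains of both groups (n = 3 each) had been profiled by RiboMeth-seq. Reads were mapped by the authors to curated rRNA sequences of the mouse (the submitters' notes list Bowtie2 2.3.4.1 and cutadapt 2.0). For every brain and rRNA position, the deposited tables give how many reads start (5' ends) and finish (3' ends) there, as raw counts. They also hold the fraction (score) that the authors computed from these counts, 1 minus the ends at a position over a weighted mean of 6 neighbours on each side, or 0 where negative. Recomputed from the counts (tolerance 0.0001), it matched at every unlisted 18S position. The deposited totals, means and SDs, an adult column without a heading and the table of listed sites' mean scores (KO and WT) were not used. Positions count along the rRNA and have no genome build, and WT brains were not analysed here.

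An end ratio is log2((ends + 0.5) / (expected ends + 0.5)), the expected ends being that weighted mean (weights 1.0 to 0.5). Ends at all 18S, 28S and 5.8S positions with at least 100 expected ends in every brain (6546) were fitted with edgeR 4.0.16 (quasi-likelihood, offset log expected ends, group as the only term, Benjamini-Hochberg over all positions, threshold 0.05). Adult was tested against E16.5, and the mean of both groups against the expected ends. On simulated counts for adult against E16.5 (6546 positions, 200 changed), edgeR called 98.9% of changes of 2 and 41.7% of changes of 1 on the log2 scale, with 10 false calls per run. The counts were drawn independently around fixed expected ends, whereas in the data these come from the neighbours' counts. The rates therefore need not hold for the data. Values over sets of positions were compared by exact permutation over the 6 brains, which cannot give a two-sided p under 0.1. Crossing ratios used 1 added end per window. Alternatives were DESeq2 1.42.0, limma 3.58.1, TMM, other neighbours, 5' or 3' ends alone, scaling by base and next base, other minimums of expected ends, a replicate block and leaving out each brain.

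Ends per brain at 18S ranged from 3535124 to 6958547. The methods name no molecular identifiers, counting intervals are therefore left out, and p-values measure the spread between brains. Named positions were the known base-modified ones and 3 of the decoding centre, the 10 with the highest mean score, the 5 with the highest mean end ratio and up to 10 with the largest log2 change among those called adult against E16.5 without overlap. The members and lists were chosen with earlier results of these data known. The list of pseudouridine positions was written from general knowledge of human 18S rRNA after the score ranking had been seen, so it carries no test.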

Additional observations from a re-analysis of the deposited data

Results flagged for a closer look

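At 5 named positions every brain of one group had more ends than its neighbours and every brain of the other group fewer. The difference in end ratio, adult minus E16.5, was -3.05 at U1856, -2.64 at G1857, -1.40 at G512, -1.36 at A1547 and 1.65 at C826. These are the 5 positions called by edgeR (adjusted p from 0.0111 to 0.0451). They were named because they were called and their groups were apart, so the separation follows from that choice. The adjusted p rests on the same ends and is no separate support. Complete separation by end ratio was itself common, at 20.2% of the 1819 unlisted 18S positions. The share of positions with the groups on opposite sides of 0 was not counted. C826 was close to 0 in adult brain 1 (0.03) and G1857 in E16.5 brain 2 (0.03), so the opposite direction rests there on a small margin. U1856 and G1857 lie beside the dimethylated A1852 and A1853 and held 3' ends only.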

How the results depend on the processing

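The count of 5 positions called between adult and E16.5 stayed at 5 or 6 with 2 or 4 neighbours, equal weights, listed sites left out of the neighbours, a minimum of 10 expected ends, TMM and limma. The positions were not the same throughout. With 2 neighbours 1 of the 5 remained, and all 5 calls had more ends in the adult brains, against 1 with more and 4 with fewer in the main fit. It was 3 with the median of the 12 neighbours, 44 with 5' ends alone and 1 with 3' ends alone. It was 8 with scaling by base and next base, 2 with a minimum of 1000 expected ends, 56 with DESeq2 and 1 to 21 without a brain. Over all rRNA positions tested, the counts in the same order were 25, 180, 4, 43, 17, 242 and 10 to 105, against 36 in the main fit. The samples share replicate numbers, but same-numbered brains deviated together with r of 0.356, 0.164 and -0.00840, so that the numbers were not taken as pairs, and a replicate block gave 8 calls, all 5 among them. Positions with fewer ends than the neighbours (478) fell to 284 with scaling by base and next base and to 278 with a minimum of 1000, and those with more ends (374) to 219 with 3' ends alone. Positions with a mean score of 0.5 or more (75 adult, 108 E16.5) became 37 and 54 with 2 neighbours, 3 and 9 at a threshold of 0.75, and 139 and 245 with 3' ends alone. They became 163 and 152 with 5' ends alone, which turned the order of the groups, and 67 and 69 in E16.5 with the median of the neighbours and with scaling by base and next base. The G median minus that of the other bases (-0.23 over 6 brains) was -0.28 with 2 neighbours, -0.21 with the median, -0.17 with 5' ends alone, -0.31 with 3' ends alone and -0.24 to -0.22 without a brain. Under the 20 alternatives to each call between the groups, U1856 lost it in 1, C826 in 5, A1547 in 8, and G512 and G1857 in 9 each, some alternatives giving no value for a position. The differences of U1250 in crossing ratio ran from -2.15 to -1.22 (5' ends) and from -3.03 to -2.10 (3' ends) without a brain.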
